A study of Mus musculus with 10 samples.

Results

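Distal sites that carried both the glucocorticoid receptor (GR) and lysine-specific demethylase 1 (LSD1) in fed skeletal muscle, and that had no GR peak in starved muscle, are described here. They were selected on measured values, namely the presence and absence of peaks in 3 deposited lists. A member was a GR fed peak with its midpoint outside every promoter (from 1 kb upstream to 100 bp downstream of a RefSeq transcription start site, TSS, on GRCm38), that shared at least 1 bp with an LSD1 fed peak and no base with a GR starved peak. Of the 14108 GR fed peaks, 10955 were distal, 4681 of these shared sequence with an LSD1 fed peak, and 892 met the whole rule. With a q-value of 0.01 or less in the fed lists 338 sites met it, and with a GR starved list cut by fold to the length of the fed list 1821 did. With promoters taken to 1 kb downstream 794 sites met it, so some members lay shortly downstream of a TSS. The other 3789 distal GR and LSD1 sites are called kept sites. A further 3279 distal GR fed peaks had neither an LSD1 fed nor a GR starved peak and are called lost GR-only sites.

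The chromatin came from skeletal muscle of wild-type male C57BL/6J mice, aged 10 weeks by the labels, that were either fed or starved for 24 h. The study's text gives a younger age for the mice of its first GR and LSD1 experiments, and the label was used here. No transgene, deletion or drug treatment was part of either group. In each condition 1 library was sequenced after immunoprecipitation of each of GR, LSD1, and histone H3 mono- or dimethylated at lysine 9 (H3K9me1 and H3K9me2). The study's reporting form states repeated experiments with several mice per condition, but not how many mice entered a given library. Whole muscle holds vascular, connective and immune nuclei beside those of myofibres, so fewer nuclei of a type with a bound site and less binding per nucleus cannot be told apart. Peak lists hold no expression values, so the tissue could not be checked against marker transcripts. Depth is unknown, because read numbers were not analysed here.

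GR is a nuclear receptor that enters the nucleus when bound by glucocorticoids and binds DNA as a dimer at glucocorticoid response elements (GREs), which are inverted repeats of a hexamer, or is held at chromatin through other factors. LSD1 is a flavin-dependent enzyme that removes mono- and dimethyl groups from histone H3 and works in complexes with corepressors or with nuclear receptors. Food deprivation raises circulating glucocorticoids, and in muscle GR is known for driving genes of protein breakdown and for restraining insulin signalling.

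Absence from the GR starved list means that no peak was called there, not that the signal was shown to be absent. The GR starved list was the longer one, with 37783 peaks. Of all GR fed peaks, 34.2% had no GR starved peak. Among distal sites with LSD1 the share was 19.1% (95% confidence interval, CI, 17.9 to 20.2, n = 4681), and among distal sites without LSD1 it was 52.3% (95% CI 51.0 to 53.5, n = 6274). These shares follow from the rule and are given as a description. All intervals are exact binomial ones and reflect counting error alone, because peaks that lie close together are not independent. Each group held 1 library, so fed and starved muscle could not be compared by a test.

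Sequences of members are shown first, namely all those with a GRE-like sequence and then some with a high GR fed fold. The latter were picked by height and do not stand for the remaining members. A GRE-like sequence was defined as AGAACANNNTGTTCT with at most 1 mismatch in the 2 hexamers. It was present in 5 members, near Ramp1, Nt5c2, Kcnq5, Nedd4 and Nup133. The lines give the plus strand of GRCm38 with 10 bases on each side, and capitals mark the hexamer bases that match the pattern.
Ramp1 (chr1:91199988-91200022): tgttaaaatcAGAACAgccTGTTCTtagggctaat
Nt5c2 (chr19:46909083-46909117): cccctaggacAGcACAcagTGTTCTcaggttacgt
Kcnq5 (chr1:21733622-21733656): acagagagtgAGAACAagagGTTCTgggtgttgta
Nedd4 (chr9:72722760-72722794): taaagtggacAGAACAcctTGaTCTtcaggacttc
Nup133 (chr8:123925949-123925983): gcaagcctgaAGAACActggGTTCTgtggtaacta

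The Ramp1 member was the 1 with no mismatch, and the other 4 had 1 mismatch. It lay in an intron of Ramp1, which encodes an accessory protein of calcitonin-family receptors, 20.1 kb from the TSS, with a GR fed fold enrichment over input of 3.90 and an LSD1 fed fold enrichment of 3.86. The Nt5c2 member, in an intron of a cytosolic nucleotidase gene, had the highest GR fed fold of the 5, at 5.64. The Kcnq5 member lay 228 kb downstream of the TSS in an intron of this potassium channel gene and had a GR fed fold of 4.90. The Nedd4 member lay in an intron of a ubiquitin ligase gene, 29.5 kb from the TSS, with a GR fed fold of 4.45 and an LSD1 fed fold of 4.44. The Nup133 member, in an intron of a nuclear pore gene, had a GR fed fold of 4.18 and the highest LSD1 fed fold of the 5, at 5.06. All 5 lay in introns of their nearest gene. Of the 5, the Nt5c2 member was overlapped by an H3K9me2 fed peak and the other 4 by no peak of the lists that the rule did not use.

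The next sequences are the 3 members with the highest GR fed fold, followed by the 3 members with the highest GR fed fold whose nearest gene is in the muscle gene lists described later, apart from Bin1 and those already shown. At most 300 bases around the midpoint are given. Capitals mark an E-box (CAGCTG, the binding sequence of myogenic basic helix-loop-helix factors) and the GRE hexamer (AGAACA on either strand, read as TGTTCT on the other).
Glb1l2 (chr9:26792973-26793272): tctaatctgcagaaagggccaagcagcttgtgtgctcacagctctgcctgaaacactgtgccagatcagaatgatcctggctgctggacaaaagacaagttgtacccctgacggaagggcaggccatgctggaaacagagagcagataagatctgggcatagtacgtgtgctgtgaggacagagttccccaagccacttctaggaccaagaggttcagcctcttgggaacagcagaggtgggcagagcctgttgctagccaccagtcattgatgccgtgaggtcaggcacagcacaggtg
Ssbp2 (chr13:91478120-91478381): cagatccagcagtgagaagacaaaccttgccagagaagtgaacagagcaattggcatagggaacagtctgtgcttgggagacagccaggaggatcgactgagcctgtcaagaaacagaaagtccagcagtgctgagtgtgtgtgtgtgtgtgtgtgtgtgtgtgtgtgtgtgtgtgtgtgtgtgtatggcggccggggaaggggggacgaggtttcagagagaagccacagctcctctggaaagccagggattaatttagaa
1700017B05Rik (chr9:57276409-57276647): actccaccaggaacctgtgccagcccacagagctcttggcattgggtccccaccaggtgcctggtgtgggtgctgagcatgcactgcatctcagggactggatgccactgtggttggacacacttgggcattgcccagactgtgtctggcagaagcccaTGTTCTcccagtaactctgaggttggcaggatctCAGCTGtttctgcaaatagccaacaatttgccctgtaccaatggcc
Synpo2 (chr3:123185187-123185394): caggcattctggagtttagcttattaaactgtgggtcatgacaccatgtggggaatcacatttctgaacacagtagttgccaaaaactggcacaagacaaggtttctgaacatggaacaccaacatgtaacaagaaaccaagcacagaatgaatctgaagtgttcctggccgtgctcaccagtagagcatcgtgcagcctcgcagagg
Rptor (chr11:119663961-119664260): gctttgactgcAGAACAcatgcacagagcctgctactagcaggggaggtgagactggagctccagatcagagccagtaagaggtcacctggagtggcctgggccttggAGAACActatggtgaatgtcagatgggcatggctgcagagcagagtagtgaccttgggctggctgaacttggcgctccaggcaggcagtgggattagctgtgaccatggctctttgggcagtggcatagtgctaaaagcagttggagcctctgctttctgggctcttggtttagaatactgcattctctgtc
Jph1 (chr1:16916805-16916974): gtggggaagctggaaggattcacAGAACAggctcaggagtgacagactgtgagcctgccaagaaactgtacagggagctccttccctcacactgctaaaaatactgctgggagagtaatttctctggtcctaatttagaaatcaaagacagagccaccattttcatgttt

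Of these 6 stretches, Rptor held 2 GRE hexamers, 1700017B05Rik and Jph1 held 1 each, and Glb1l2, Ssbp2 and Synpo2 held none. An E-box stood in the 1700017B05Rik stretch. The Glb1l2 peak, which is longer than the bases shown, held 1 E-box outside them. A match in letters is a description and not a shown binding site.

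The GR fed fold enrichment of the members, which belongs to the contrast used by the rule, is given as a description. It ran from 1.20 to 9.46, with a median of 3.19 and quartiles of 2.94 and 3.70. Kept sites had a median of 3.74 and a highest fold of 17.99, and lost GR-only sites had a median of 3.16. Of the members, 68.3% (95% CI 65.1 to 71.3) had a GR fed q-value of 0.01 or less, against 86.2% of the kept sites and 56.3% of the lost GR-only sites. The median GR fed peak length was 251.5 bp in members, 366 bp in kept sites and 203 bp in lost GR-only sites. The LSD1 fed peaks at the members were close in height to those at kept sites, with a median fold of 4.06 against 4.20. The midpoints of the GR and the LSD1 peak of a member lay a median of 69 bp apart, and 78 bp apart at kept sites.

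**Figure D1:**
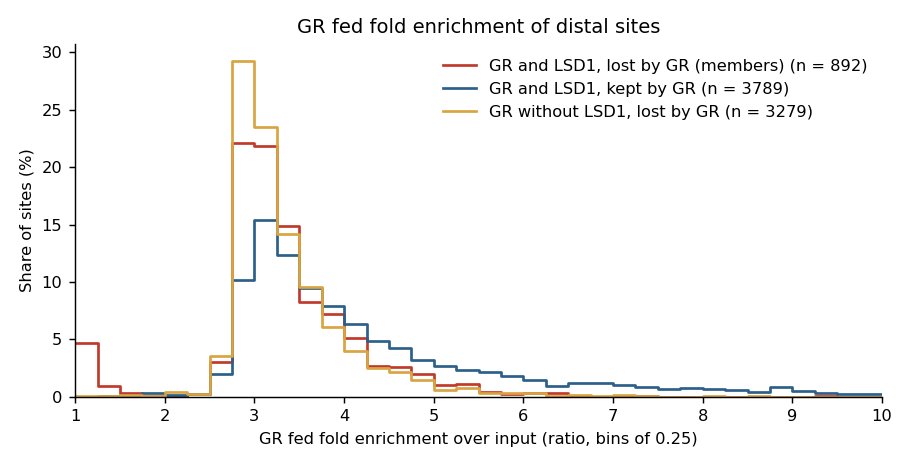
GR fed fold enrichment over input (ratio, bins of 0.25, horizontal axis) against the share of sites in percent (vertical axis) for the 892 members, the 3789 kept sites and the 3279 lost GR-only sites. The curve of the members follows that of the lost GR-only sites, apart from a separate group of 54 members with a fold below 2, and kept sites with a fold of 10 or more lie outside the axis.

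The 54 members with a fold below 2 stood apart and are given before the comparisons. Their GR fed fold ran from 1.20 to 1.82, and the lowest fold of the other 838 members was 2.47. Of the 54, 21 lay on the unplaced scaffold JH584304, 17 within the first part of chromosome 9 (nearest gene Mir101c, from 3000038 to 3038233), 4 near chr2:98662248-98667302 (nearest gene Lrrc4c, with its TSS from 1195 to 1199 kb away) and 2 on mitochondrial DNA. In the 33 with a reference sequence the median repeat-masked share was 94.6%. All 54 were overlapped by an LSD1 starved, an H3K9me1 starved and an H3K9me2 fed peak, and 41 of them by a peak of each of the 5 lists that the rule did not use. They made up 24.0% of the bases covered by members. The shares that they moved are therefore given with and without them. This division at a fold of 2 was chosen after the data were seen.

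At matched GR fed fold from 2 upward, sites without a GR starved peak were rarer among those with LSD1. These counts use the same lists as the rule and are a description. With a fold from 2 to 3, 226 of 701 sites with LSD1 were members (32.2%), against 67.2% of 1633 sites without LSD1 that were lost. With a fold from 3.5 to 4 the shares were 17.3% and 48.3%. With a fold from 5 to 7 they were 5.78% and 18.7%. At a fold of 7 or more, 3 of 355 sites with LSD1 were members (0.845%), against 8 of 128 sites without LSD1. Below a fold of 2 the shares were 71.1% and 71.4%.

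The same order was seen in classes of q-value and of peak length. At a GR fed q-value from 0.01 upward, 35.2% of the sites with LSD1 were members, and 67.8% of those without LSD1 were lost. At a q-value below 1e-10 the shares were 3.66% and 14.7%. Among peaks of 400 to 600 bp they were 13.2% and 51.6%. Without the low-fold sites, the share of members was 21.8% at an LSD1 fed fold from 3.5 to 4, 17.0% from 4 to 5 and 12.6% from 5 to 7. At an LSD1 fed fold of 7 or more it was 26.2% (11 of 42 sites). Of these 11 members, 8 were called in 3 or more of the 5 other lists, against 2 of 31 such kept sites. The highest class thus rests mostly on the set apart described below, and no trend with LSD1 height is read from it.

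**Figure D2:**
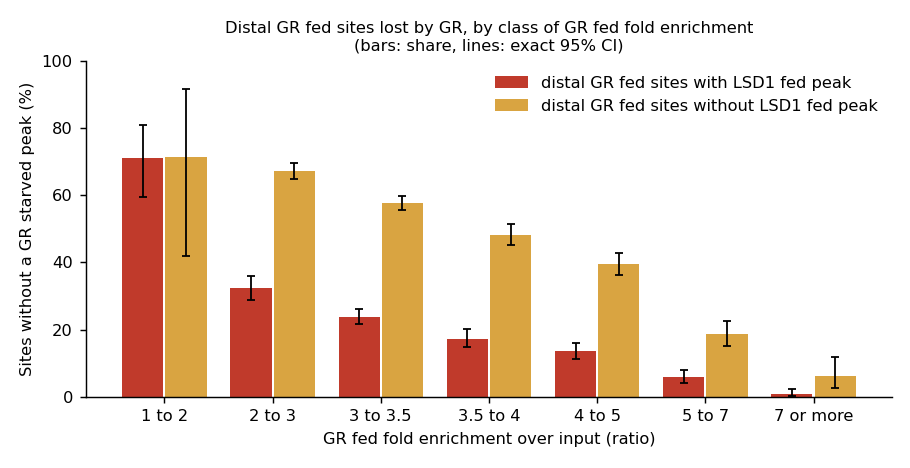
Share of distal GR fed sites without a GR starved peak in percent (vertical axis, from 0) by class of GR fed fold enrichment (horizontal axis, ratio), with and without an LSD1 fed peak, with exact 95% CI as lines. In both kinds of site the share falls with the fold, and from a fold of 2 upward the bars with LSD1 are the lower ones, from 32.2% down to 0.845%.

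The LSD1 starved list was not used by the rule and shows how often LSD1 itself was called at the members after starvation. Each condition had 1 input library, so the GR starved and LSD1 starved peaks were probably called against the same input. The part of a shared input in the shares below was not tested. It holds 66332 peaks, against 16616 in the LSD1 fed list. The study instead states far fewer LSD1 peaks after starvation than in fed muscle, so this list may be another version. Of all GR fed peaks, 21.4% were overlapped by an LSD1 starved peak. Of the 892 members, 143 were overlapped (16.0%, 95% CI 13.7 to 18.6). Without the 54 low-fold members the share was 10.6% (95% CI 8.62 to 12.9, n = 838), below the 28.8% (95% CI 27.3 to 30.3, n = 3767) of kept sites and above the 3.73% (95% CI 3.11 to 4.44, n = 3269) of lost GR-only sites treated likewise. Most sites of each kind, kept sites included, thus had no LSD1 starved peak. LSD1 was called less often at the members than at the kept sites.

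This order held at matched GR fed fold. From 3 to 3.5, 9.45% (95% CI 6.51 to 13.1) of 328 members had an LSD1 starved peak, against 27.8% (95% CI 25.1 to 30.6) of 1050 kept sites. From 4 to 5 it was 6.31% (95% CI 2.57 to 12.6) of 111 members, against 29.5% (95% CI 26.1 to 33.0) of 709 kept sites. It was less marked among short peaks. Below 200 bp, 10.7% (95% CI 7.32 to 14.9) of the members and 16.6% (95% CI 13.6 to 19.9) of the kept sites had an LSD1 starved peak, with overlapping intervals, and from 400 bp upward the shares were 12.6% (95% CI 8.34 to 18.1) and 39.2% (95% CI 36.8 to 41.5). The share of the members changed little with length, and that of the kept sites rose.

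H3K9me2, a mark of repressed chromatin and a substrate of LSD1, was examined next. An H3K9me2 fed peak overlapped 16.5% of all GR fed peaks. Among members the share was 16.4% (95% CI 14.0 to 18.96), and 10.98% (95% CI 8.94 to 13.3) without the low-fold members. Kept sites of a fold of 2 or more had 14.6% (95% CI 13.5 to 15.8) and lost GR-only sites 7.49% (95% CI 6.62 to 8.45). The low-fold members thus accounted for 54 of the 146 members with this mark. At a GR fed fold from 2 to 3, 11.5% (95% CI 7.65 to 16.4) of the members and 20.6% (95% CI 17.1 to 24.6) of the kept sites had this mark, and from a fold of 3 upward the intervals overlapped in each class. Within classes of length the shares were 7.83% (95% CI 4.97 to 11.6) and 8.47% (95% CI 6.31 to 11.1) below 200 bp and 16.2% (95% CI 11.3 to 22.0) and 20.2% (95% CI 18.3 to 22.2) from 400 bp upward, with overlapping intervals.

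The other mark lists touched few members beyond the low-fold ones. H3K9me2 starved peaks overlapped 0.766% of all GR fed peaks and 5.94% of the members, but 3 of the 838 members with a fold of 2 or more (0.358%, 95% CI 0.0739 to 1.04). H3K9me1 fed peaks overlapped 2.27% of all GR fed peaks, 6.95% of the members and 2.27% (95% CI 1.37 to 3.52) of the members without the low-fold ones. H3K9me1 starved peaks overlapped 2.8% of all GR fed peaks, 8.74% of the members and 2.86% (95% CI 1.84 to 4.23) without the low-fold ones. The corresponding values of kept sites were 0.345%, 2.34% and 2.39%. Those of lost GR-only sites were 0.428%, 0.795% (95% CI 0.520 to 1.16) and 1.56% (95% CI 1.16 to 2.05). For H3K9me1 fed the members thus stayed above the lost GR-only sites, and for the other lists here these intervals overlapped. The fed and starved libraries of each mark carried different library codes in the labels. In the study's reporting form every library has a code of its own, also within a condition, so the codes name no batch. The H3K9me2 starved list holds 6624 peaks against 171402 in the fed list. Condition, any difference in handling between libraries, and list length therefore cannot be told apart for the marks. The same holds for GR (14108 peaks fed, 37783 starved) and LSD1 (16616 and 66332). In all, 659 members were called in none of the 5 other lists (73.9%), 149 in 1 (16.7%) and 22 in 2 (2.47%). Among all GR fed peaks these shares were 66.5%, 25.5% and 6.63%. Of kept sites 60.1% were called in none, and of lost GR-only sites 87.2%.

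**Figure D3:**
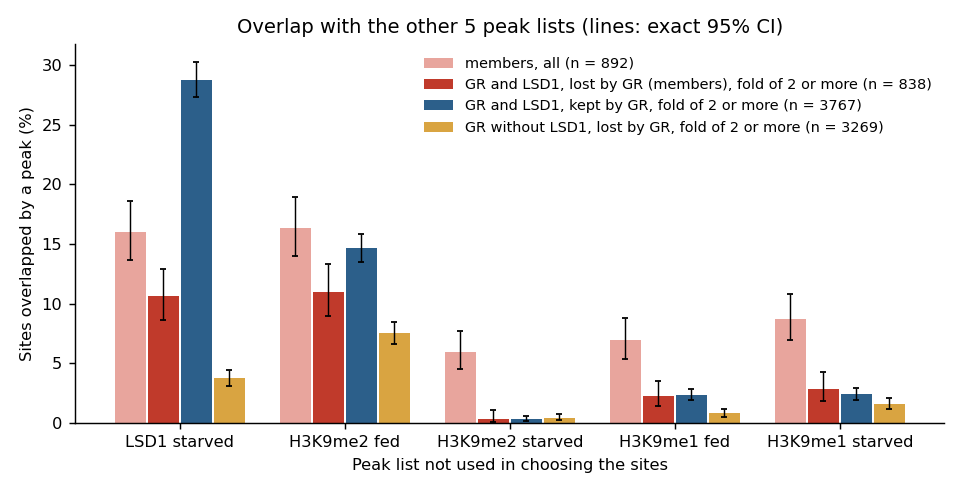
Share of sites overlapped by a peak of each of the 5 lists that the rule did not use (vertical axis in percent, from 0), for all 892 members and, at a GR fed fold of 2 or more, for 838 members, 3767 kept sites and 3269 lost GR-only sites, with exact 95% CI as lines. For LSD1 starved the members of a fold of 2 or more lie at 10.6%, between the lost GR-only sites and the kept sites. For H3K9me2 starved and both H3K9me1 lists the intervals of members and kept sites overlap when the low-fold members are left out. For H3K9me1 fed these members still lie above the lost GR-only sites, with intervals apart.

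The members with the highest LSD1 fed fold belonged to a second set apart. The 5 highest had LSD1 fed folds from 16.7 to 24.6, far above the upper quartile of the members of 4.41. Their nearest genes were Gm13580 (chr2:60402708-60402895, LSD1 fed fold 24.6, GR fed fold 4.90), Mydgf (chr17:56199951-56200148, in an intron of Dpp9, 22.1 and 5.77), Gm17644 (chr1:12644729-12644893, 22.1 and 4.86), Gm8882 (chr6:132463684-132463800, 20.2 and 3.75) and D130079A08Rik (chr14:104336907-104337082, 16.7 and 5.25). Each of the 5 was overlapped by an LSD1 starved, both H3K9me1 and an H3K9me2 fed peak. The H3K9me2 fed fold at these 5 ran from 22.6 to 46.7 and the H3K9me1 fed fold from 14.4 to 25.5. From 43% to 100% of their bases were repeat-masked. Of the 11 members with an LSD1 fed fold of 7 or more, 8 were called in 3 or more of the 5 other lists, against 2 of 31 such kept sites. A high LSD1 fed fold at a member therefore came mostly with enrichment in several antibodies at once, whose part in the LSD1 value was not tested.

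GRE-like sequences were rare in the members. The share was 0.574% (95% CI 0.187 to 1.33, 5 of 871 with a reference sequence), against 2.17% of all GR fed peaks, 2.06% (95% CI 1.63 to 2.57) of kept sites and 3.02% (95% CI 2.46 to 3.66) of lost GR-only sites. Flanks of the same length, at 5 kb to either side of the members, held one in 0.230% (95% CI 0.0627 to 0.588), so the interval of the members overlapped that of their flanks. In windows of 300 bp around the midpoint, where length cannot play a part, the share was 0.574% (95% CI 0.187 to 1.33) in members, 1.27% (95% CI 0.937 to 1.68) in kept sites and 2.99% (95% CI 2.43 to 3.63) in lost GR-only sites. In such windows the members thus fell below the lost sites without LSD1 beyond counting error, and the intervals of members and kept sites overlapped. At matched GR fed fold, the whole-peak intervals of members and kept sites overlapped in each class from 2 upward. From 3.5 to 4 the shares were 0.725% in members and 0.607% in kept sites, and from 4 to 5 2.70% and 1.83%. The intervals of members and lost GR-only sites were apart from 3 to 3.5 (0%, 95% CI 0 to 1.12, and 2.27%, 95% CI 1.51 to 3.26), but overlapped in the other classes. With at most 2 mismatches the shares in whole peaks were 5.51% (95% CI 4.09 to 7.24) in members, 10.3% (95% CI 9.39 to 11.4) in kept sites and 12.0% (95% CI 10.9 to 13.1) in lost GR-only sites, with 3.33% (95% CI 2.54 to 4.29) in the flanks of the members.

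The E-box and the GC box (GGGCGG, bound by Sp and KLF factors) were the sequences that stood out against flanks. The flanks were matched in length but not in base composition, whose part in these differences was not tested. An E-box was present in 32.6% (95% CI 29.5 to 35.8) of the members and in 13.9% (95% CI 12.3 to 15.6) of their flanks, with 28.9% of all GR fed peaks as background. Kept sites had 43.5% (95% CI 41.9 to 45.1) and lost GR-only sites 20.6% (95% CI 19.2 to 22.0). In windows of 300 bp the members had 32.8% (95% CI 29.7 to 36.1) and the kept sites 35.1% (95% CI 33.6 to 36.7), with overlapping intervals, so peak length moved with the larger difference in whole peaks. Lost GR-only sites had 23.2% (95% CI 21.8 to 24.7) in such windows, below the members. A GC box was present in 16.6% (95% CI 14.2 to 19.3) of the members and 5.17% (95% CI 4.18 to 6.32) of their flanks, against 22.4% of kept and 7.84% of lost GR-only sites. In windows of 300 bp the members had 15.8% (95% CI 13.5 to 18.4) and the kept sites 18.2% (95% CI 17.0 to 19.5), with overlapping intervals.

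The binding sequence of MEF2, a muscle transcription factor family, was rare but likewise above flanks, with 2.87% (95% CI 1.87 to 4.21) of the members and 1.15% (95% CI 0.703 to 1.77) of their flanks. The intervals of members and flanks overlapped for the remaining motifs. For AP-1 (TGACTCA) the shares were 5.74% (95% CI 4.29 to 7.50) and 4.94% (95% CI 3.97 to 6.07), and for FOXO (GTAAACA) 3.67% (95% CI 2.53 to 5.15) and 4.20% (95% CI 3.30 to 5.25). A homeobox factor sequence (TCAGGTT) was present in 6.66% (95% CI 5.09 to 8.52) and 7.18% (95% CI 6.01 to 8.50). In kept sites the AP-1 share was 11.5% (95% CI 10.5 to 12.5) against 8.14% in flanks, and the FOXO share 7.54% (95% CI 6.71 to 8.42) against 5.71%. TEAD (GGAATG) was present in 20.0% (95% CI 17.4 to 22.8) of the members and 15.8% (95% CI 14.1 to 17.6) of the flanks, and RUNX (TGTGGT) in 17.8% (95% CI 15.3 to 20.5) and 21.9% (95% CI 19.97 to 23.9). The ESRR sequence (TCAAGGTCA) was present in 9 members, and the C/EBP (TTGCGCAA) and NRF1 sequences in 1 each. All motifs were searched on both strands, and no motif contains another. The median GC content was 51.6% in members, 53.4% in kept and 48.5% in lost GR-only sites.

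**Figure D4:**
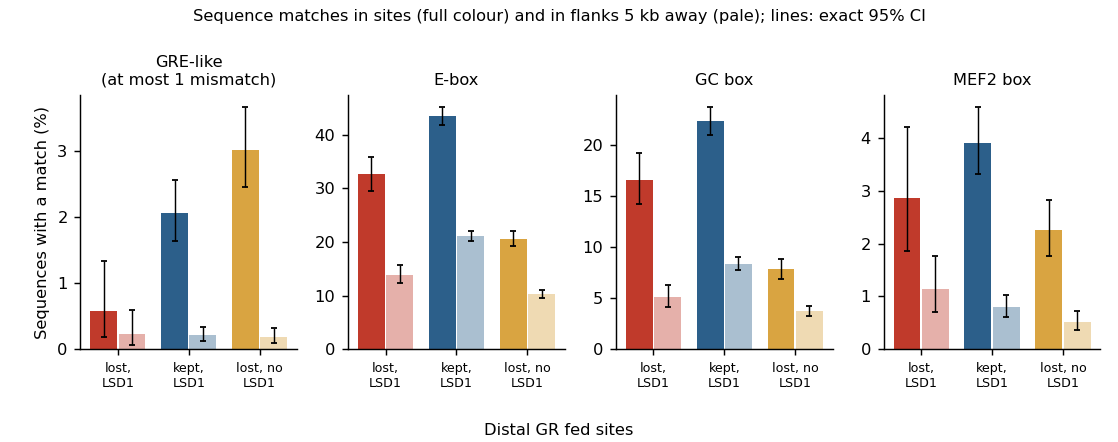
Share of sequences with a match in percent (vertical axis, from 0, with a scale of its own in each panel) for GRE-like sequences, E-box, GC box and MEF2 box, in whole sites (full colour) and in flanks of the same length at 5 kb to either side (pale), for members (lost, LSD1), kept sites and lost GR-only sites, with exact 95% CI as lines. The GRE-like share of the members, 0.574%, has an interval that reaches the flanks, whereas the E-box share of 32.6% lies well above the 13.9% of flanks.

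By location, 442 of the 869 members on annotated chromosomes lay in introns (50.9%, 95% CI 47.5 to 54.2), 93 in exons (10.7%) and 334 in intergenic sequence (38.4%, 95% CI 35.2 to 41.8). Kept sites had 53.7% in introns, 9.23% in exons and 37.1% (95% CI 35.5 to 38.6) in intergenic sequence. The median distance to the nearest TSS was 21.2 kb in members and 17.0 kb in kept sites. The intervals of members and kept sites overlapped for each kind of location.

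The closest GR starved peak lay at a median of 7.56 kb from a member, with quartiles of 2.21 and 26.0 kb. It lay within 1 kb of 14.6% of the members, within 10 kb of 54.9% (95% CI 51.6 to 58.2) and within 100 kb of 92.7%. The share within 10 kb depended on the threshold and was 36.3% of 1704 members when the GR starved list was held to a q-value of 0.01 or less, and 35.6% of 662 members when all lists were. Of the lost GR-only sites 52.6% (95% CI 50.9 to 54.3) had one within 10 kb. Without the sites of a fold below 2 the shares were 58.2% in members and 52.8% in lost GR-only sites. These distances are read from the GR starved list that the rule itself used and are a description. The LSD1 fed peak of 17 members was itself touched by a GR starved peak that missed the GR fed peak. The nearest gene of 744 of 869 members (85.6%) had a GR starved peak elsewhere, against 86.3% for lost GR-only sites, while 54.8% of all annotated genes had one. Loss of the site was thus mostly not loss of all GR peaks assigned to the gene.

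The rule turns on single bases at its edge. The member near 0610039H22Rik (chr11:88557181-88557333, in an intron of Msi2) abutted a GR starved peak, the Zfp143 member (chr7:110061962-110062180) was separated from one by 1 bp, and the Gm572 member (chr4:148666957-148667268) by 7 bp. Their GR fed folds were 3.21, 2.85 and 2.97. Just outside the rule, the kept sites at Spg11, Ubxn2a and Rnf44 shared 1, 2 and 5 bp with a GR starved peak, at GR fed folds of 2.62, 3.36 and 3.13. These values are given without a test.

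Of the 10 members with the highest GR fed fold on autosomes or X, 9 are described by gene. The Glb1l2 member (chr9:26792828-26793417, in an intron 13.3 kb from the TSS) had the highest GR fed fold, 9.46 with a q-value of 9.83e-36, an LSD1 fed fold of 4.37, and its nearest GR starved peak 13.1 kb away at a fold of 2.73. Glb1l2 encodes a galactosidase-like protein. The Ssbp2 member, in an intron 17.2 kb from the TSS of this single-stranded DNA-binding protein gene, had a GR fed fold of 7.42 and an LSD1 fed fold of 3.92. The 1700017B05Rik member, 13.9 kb upstream of the TSS, had 7.17 and 5.03, and no GR starved peak was assigned to that gene.

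Below these 3 the GR fed fold was between 6.08 and 6.57. The 4930581F22Rik member (chr9:35059098-35059298) lay in an intron of the sialyltransferase gene St3gal4 at 6.57, and was the 1 of the 10 that another list touched, with an H3K9me2 fed peak. A member near another sialyltransferase gene, St3gal6 (chr16:58487336-58487531, in an intron 36.0 kb from the TSS), had 6.26. The Dusp10 member (chr1:184171006-184171174), 137 kb from the TSS of a phosphatase that acts on stress kinases, had 6.48, while 6 of the 7 GR fed peaks assigned to Dusp10 were kept. Others were near Gm31344 (6.38), Adamts20 (6.09) and the cell cycle kinase gene Cdc7 (6.08). The LSD1 fed folds of the 10 ran from 3.70 to 5.03, within the range of ordinary members, and 9 of the 10 were called in none of the 5 other lists. The share called in none was 73.9% among all members and 66.5% among all GR fed peaks.

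The members were assigned to 779 nearest genes, which is 2.98% of all annotated genes. Of these, 712 had 1 member, 59 had 2 and 8 had 3 or more. Beside Mir101c with 17 and Lrrc4c with 4, which belong to the low-fold members, 6 genes had 3 members each. At Adamts20, which encodes a secreted metalloprotease, the members lay within 33.5 kb at GR fed folds of 6.09, 4.79 and 3.06, and none of the 5 GR fed peaks of the gene was kept. At Agtr1b, an angiotensin receptor gene, they lay far away, from 295 to 686 kb upstream. At Limch1, which encodes an actomyosin regulator, they had folds of 3.28, 3.24 and 3.14, with 14 GR starved peaks assigned to the gene. Plpp1, 1700025G04Rik and Gm4861 were the other 3, with 12, 19 and 4 GR starved peaks.

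The 13 gene lists of muscle and GR biology held 392 genes, of which 49 were nearest to a member (12.5%), with 55 members. The lists were drawn up with earlier results of these data known, and many listed genes had several GR peaks, so the share is a description beside the 2.98% of all annotated genes. All 49 also had a GR starved peak assigned to them, and 43 had a GR fed peak that was kept. GR starved peaks were common at listed genes whether or not they were nearest to a member. They were assigned to between 13 of 26 genes (vascular, immune and stem cells) and 31 of 32 genes (insulin, IGF1 and mTOR signalling) of a list. Of all 779 genes nearest to a member, 86.5% had a GR starved peak and 58.4% a kept GR fed peak.

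Among GR targets and feedback genes, 7 of 28 were nearest to a member, and all 7 had kept GR fed peaks, as did 27 of the 28. The Gadd45a member (chr6:67057300-67057728), 20.1 kb upstream of this growth arrest and DNA damage gene in an intron of E230016M11Rik, had a GR fed fold of 3.62, an LSD1 fed fold of 4.10 and an H3K9me2 fed peak of fold 3.20. The Sgk1 member, 24.3 kb upstream of a glucocorticoid-regulated kinase gene, had 3.28 and 3.79. The Dusp1 member (chr17:26488016-26488183) had 3.17 and 3.75, and a GR starved peak of fold 4.40 lay 0.481 kb away. The Fkbp5 member (chr17:28446460-28446974), in an intron 39.4 kb from the TSS of the GR chaperone gene, had 2.93 and 4.36, and 2 of the 4 GR fed peaks of the gene were kept. Bcl6, a transcriptional repressor gene, had a member at 3.102 in an intron, and Zbtb16 had 2 members among 26 GR fed peaks, of which 19 were kept. Angptl4, a regulator of lipoprotein lipase, was the last of the 7. At these genes the member was 1 of several GR sites, and none reached a GR fed fold of 4.

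Among insulin, IGF1 and mTOR genes, 4 of 32 were nearest to a member. The Rptor member (chr11:119663949-119664272, in an intron 61.2 kb from the TSS), whose sequence is shown above, had a GR fed fold of 4.60 and an LSD1 fed fold of 4.20, with a GR starved peak of fold 2.63 at 1.33 kb. Rptor encodes the scaffold subunit of mTORC1. The Pik3r1 member (chr13:101719444-101719656), in an intron of the gene of the regulatory subunit of PI3-kinase, had 4.03 and 4.35 and an H3K9me2 fed peak of fold 3.58, while 6 of the 9 GR fed peaks assigned to Pik3r1 were kept. The Irs1 member, in an exon 0.155 kb from the TSS of the insulin receptor substrate gene, had 2.80 and 3.88, and the Foxo6 member, in an intron, 2.85 and 4.10.

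Among genes of excitation-contraction coupling and ion channels, 7 of 32 were nearest to a member, with 9 members. Bin1, which encodes a protein that shapes T-tubules, had the highest GR fed fold of any list, at 5.24, and an LSD1 fed fold of 4.87. Kcnq5 followed at 4.90 and 3.53, with the GRE-like sequence shown above and no kept GR fed peak. Jph1, which encodes junctophilin 1 of the triad, had a member at 4.57 and 4.02, 181 kb downstream of the TSS. Musk, the receptor tyrosine kinase of the neuromuscular junction, had 2 members in an intron (chr4:58351236-58351501 and chr4:58350298-58350460) with GR fed folds of 4.35 and 4.24. Chrne, a subunit of the acetylcholine receptor of the same synapse, had a member 3.01 kb upstream at 4.01 and 4.31. Scn4a and Jph2 completed the list.

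Among myogenic and muscle transcription factors, 8 of 36 genes were nearest to a member, with 10 members. Tbx15, a T-box factor gene, had a member 126 kb downstream at a GR fed fold of 4.55 and another in an intron at 3.35. Eya1, a transcriptional coactivator gene, had an intronic member at 4.22 with an H3K9me2 fed peak of fold 3.23, and none of its 3 GR fed peaks was kept. The Mafa member (chr15:75746960-75747099), in an exon 1.29 kb from the TSS, had a GR fed fold of 3.58 and an LSD1 fed fold of 6.76, the highest LSD1 fed fold among the members named from the lists. Mef2c and Runx1 had members at 3.54 and 3.39, and Myf6, Vgll2 and Maf were the others.

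Among sarcomere and Z-disc genes, 6 of 47 were nearest to a member, and all 6 had kept GR fed peaks, as did 35 of the 47. Synpo2, a Z-disc adaptor gene, had an intronic member at a GR fed fold of 4.81 and an LSD1 fed fold of 4.55, and 4 of its 6 GR fed peaks were kept. Myl1, a myosin light chain gene, had a member at 4.10, and 2 of its 8 GR fed peaks were kept. The Ldb3 member, in an intron 5.56 kb from the TSS of a Z-disc protein gene, had 3.79 and was 1 of the members that also had an LSD1 starved peak, of fold 3.101. Tpm2, Myom2 and Myoz1 had members between 3.05 and 3.28, of which that of Tpm2 lay in an intron of Tln1 and that of Myoz1 in an exon of Synpo2l.

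The remaining lists had few members. In the list of muscle atrophy and proteolysis, 2 of 28 genes were nearest to a member, Nedd4 at a GR fed fold of 4.45 and the calpain gene Capn2 at 2.79. At Nedd4, 10 of 14 GR fed peaks were kept. In the autophagy list 1 of 28 genes was, the kinase gene Ulk2, whose member in an exon 0.374 kb from the TSS had 3.78 and an LSD1 starved peak of fold 3.68. The clock list had 2 of 20, the repressor gene Cry1 at 3.52 and the nuclear receptor gene Rora at 2.88. The myostatin and activin list had 3 of 23, with Smad6, an inhibitory SMAD gene, at 3.51, Mstn, the gene of myostatin itself, at 3.11 (18.4 kb downstream) and the receptor gene Acvr2b at 2.90.

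The list of fuel use and mitochondria had 3 of 36 genes, namely Ppara, a fatty acid sensing nuclear receptor gene, at a GR fed fold of 3.81, Pdk2, a kinase gene that restrains glucose oxidation, at 3.08, and Esrrb at 2.81. The list of extracellular matrix and adhesion had 2 of 28, Col4a1 at 4.10 (in an intron of the neighbouring Col4a2) and Sparc at 4.01. The list of GR and LSD1 partners had 4 of 30, with 5 members. Among them, Esr1, an estrogen receptor gene, stood at 4.08 with an H3K9me2 fed peak of fold 3.44, and Gse1 at 2.96. The list of vascular, immune and stem cell markers had 0 of 26 genes nearest to a member, and 2 of its genes had a kept GR fed peak.

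**Figure D5:**
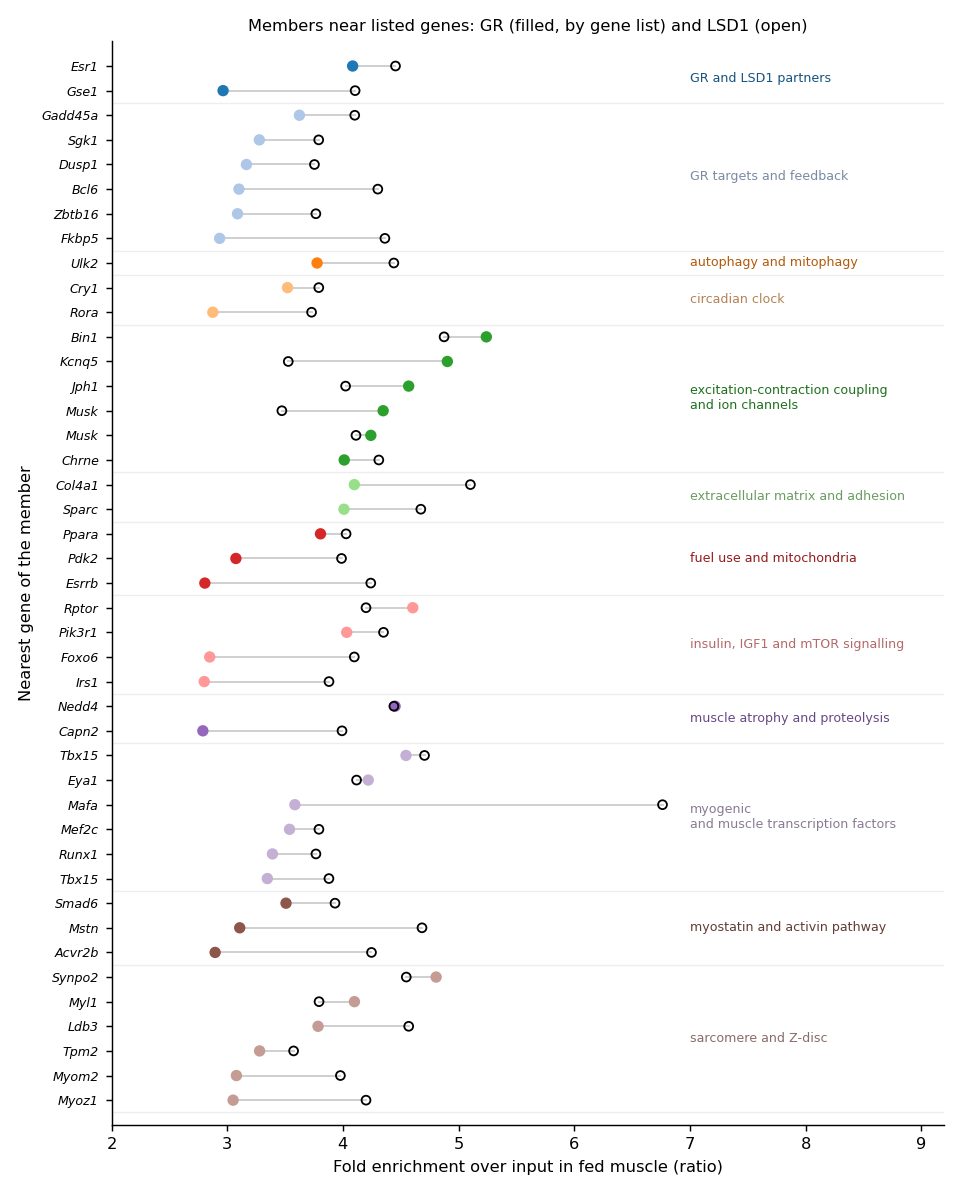
Fold enrichment over input in fed muscle (horizontal axis, ratio) of the GR peak (filled, coloured by gene list) and of the LSD1 peak (open) at 43 members, up to 6 per list, with the nearest gene on the vertical axis. The GR fed fold runs from 2.79 at Capn2 to 5.24 at Bin1, and the LSD1 fed fold lies above it in most members, with the highest at Mafa (6.76).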

How the data were processed

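The authors sequenced immunoprecipitated chromatin of fed and starved skeletal muscle. Groups were taken from the labels. Single-end reads of 50 bp were mapped by the authors to mm10 (GRCm38) and uniquely mapped reads were kept. Their methods name Bowtie, whereas the peak names in the lists carry Bowtie2, and the blacklist they name was made for the human genome. For each library the authors then called broad peaks against input in MACS2, extending reads to 150 bp. Base calls were made with bcl2fastq 2.20.0.422 per the labels. Each of the 8 deposited lists gave a fold enrichment over input (a ratio), −log10 of a p-value, −log10 of a q-value and a score, of which the fold and the q-value were used. The least stringent q-value in the deposited lists was 0.0998. The LSD1 starved list has far more peaks than the study states, so it may be another version.

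Peaks were compared by overlap of at least 1 bp and assigned to promoters, exons, introns or intergenic sequence, and to the nearest TSS, with 45756 curated RefSeq transcripts of 26180 genes. One scaffold and mitochondrial DNA were left without annotation, and the scaffold also without sequence. Motifs were searched in GRCm38 sequence on both strands. Overlap and motif functions were tested on simulated data. Shares are given with exact (Clopper-Pearson) 95% intervals. No test compared the conditions, since each had 1 library. Named members were the 10 with the highest GR fed fold, the 5 with the highest LSD1 fed fold, those with a GRE-like sequence, those of genes with 3 or more members, up to 6 per gene list by GR fed fold, and those nearest to the edge of the rule, of which a few are not reported here. Python 3.11.15 with numpy 2.4.6, pandas 2.3.3, scipy 1.17.1 and pysam 0.24.0 was used. The members, gene lists and rules were chosen with earlier results of these data known.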

Additional observations from a re-analysis of the deposited data

How the results depend on the processing

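The results rest on 1 library per group, depth is unknown, and a site near the peak threshold can enter or leave a list without a change in binding. No paired analysis was possible because each group held 1 library. With a q-value of 0.01 or less in all lists, 27% of the distal GR and LSD1 sites were members, 7.85% of the members had an LSD1 starved peak, 8.01% an H3K9me2 fed peak and 35.6% a GR starved peak within 10 kb. With that threshold for the GR starved list alone there were 1704 members (36.4%), with 19.3% and 36.3% for LSD1 starved and a GR starved peak within 10 kb. With it for both fed lists there were 338 (13.8%), with 18.9% for LSD1 starved and 20.1% for H3K9me2 fed. With the GR starved list shortened by fold to the length of the fed list there were 1821 (38.9%), with 20.7% for LSD1 starved and 38.4% for a GR starved peak within 10 kb. Overlap of 50% of the shorter peak gave a share of 21.5% and 61.9% within 10 kb. Members without a GR starved peak within 500 bp made up 17.5% (51% within 10 kb), and those without one within 1 kb 16.3% (47.2%). Promoters up to 1 kb downstream gave 794 members, with 43.3% in intergenic sequence. Without peaks that were more than 50% repeat-masked, the LSD1 starved and H3K9me2 fed shares were 13.2% and 13.6%. At a GR fed fold of 5 or more there were 35 members (3.85%), with 5.71% for LSD1 starved, 2.86% for a GRE-like sequence and 22.9% for intergenic sequence. Without the members of a fold below 2, an alternative chosen after seeing the data, the LSD1 starved and H3K9me2 fed shares were 10.6% and 11%, and 58.2% had a GR starved peak within 10 kb. A GRE without mismatch was present in 0.115% and one with at most 2 mismatches in 5.51%. A GR starved peak lay within 30 kb of 77% and within 3 kb of 31.2%. The cause was not tested where the setting does not itself change which sites count.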
